A study of Mus musculus with 6 samples.

Results

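The genes described here encode 34 enzymes and helper proteins of the lysosome, nearly all of them soluble proteins of its lumen, taken as a list of gene symbols and matched to the array through the platform's probe annotation. Of the 34, 32 were measured by 60 probe sets that name 1 gene, among 12393 genes in all, and Arsb and Aga were not analysed here. The list is wider than glycosidases, sulfatases and lipid-degrading enzymes: the 32 measured genes comprise 13 glycosidases, 4 sulfatases, 5 lipid-degrading enzymes, 2 activator proteins, 2 accessory enzymes, 3 peptidases, 2 phosphatases and 1 nuclease. All members were kept whatever their values.

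RNA came from wild-type embryonic fibroblasts of the mouse, cells of connective tissue that grow out of dissociated embryos in culture. Cells starved for 6 h were measured on 3 short-oligonucleotide arrays, and cells kept in normal growth medium, the controls, on another 3. The labels name neither the nutrients that were withdrawn nor the mouse strain, and although they call the 3 arrays biological replicates they do not say whether separate cultures were used. The p-values therefore rest on the variation among these samples alone, and this may be technical.

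Lysosomal hydrolases are made in the endoplasmic reticulum, tagged with mannose 6-phosphate and carried to the lysosome, where they take apart glycans, glycosaminoglycans and lipids from the end inwards. Each enzyme removes a particular sugar, sulfate or acyl group, so that the loss of a single step can make its substrate pile up, which is the basis of the lysosomal storage diseases. Many of their promoters hold a CLEAR element, an extended E-box bound by the transcription factor TFEB, which enters the nucleus when nutrient signalling through mTORC1 falls.

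Starved fibroblasts did not show a common rise of these genes. Of the 32 measured members 6 rose (Pla2g15, Gm2a, Ctbs, Lipa, Idua and Psap), 11 fell (Gusb, Sgsh, Ppt1, Acp5, Tpp1, Galc, Smpd1, Scpep1, Fuca1, Glb1 and Manba) and 15 did not pass the test. A gene was called when its p from limma, adjusted by the Benjamini-Hochberg method over all 12393 genes, was below 0.05. The same rule called 44.1% of all genes, 22.1% higher and 22.0% lower in starved cells, and 53.1% of the members. The median difference, starved minus control on the log2 scale, was −0.10 over the members and −0.05 over all genes, and the members ran from −1.33 for Gusb to 0.96 for Pla2g15. Most changes were small, with 22 of 32 members (68.8%) within 0.3 of 0, as were 65.1% of all genes. A rise of 0.5 or more was seen in 2 members and in 11.0% of all genes, and a fall of 0.5 or more in 2 members and in 7.42% of all genes. The starved and control arrays did not overlap for 22 members (68.8%), against 54.0% of all genes.

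**Figure D1:**
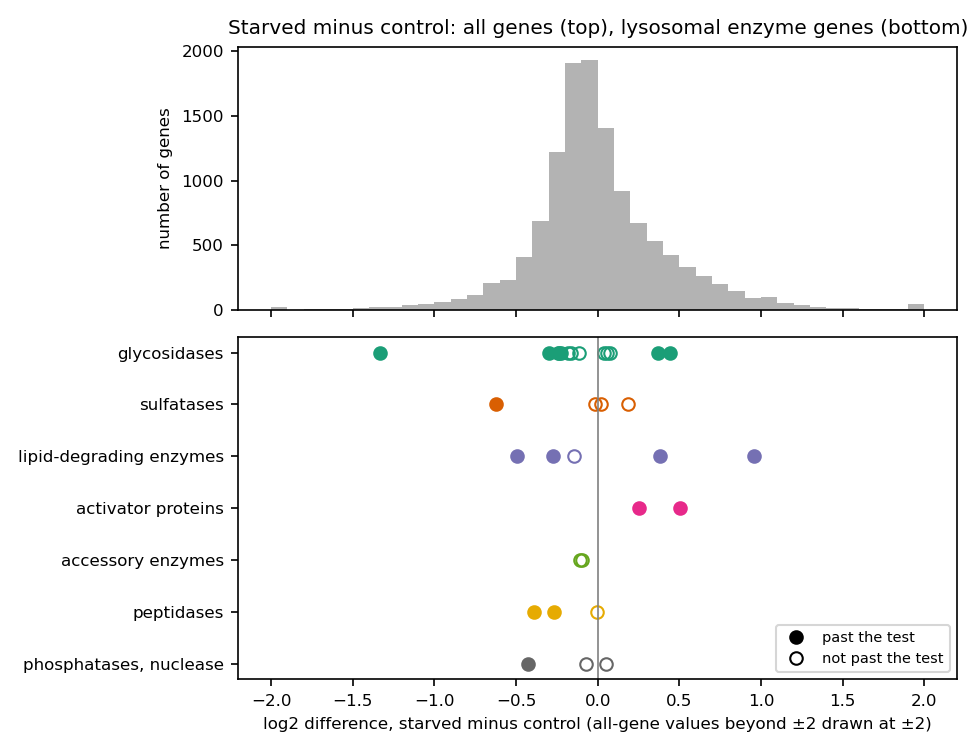
The upper panel counts all 12393 genes by their log2 difference, starved minus control, and the lower panel gives the 32 lysosomal enzyme genes by class, with filled points for genes past the test. Members lie on both sides of 0, from −1.33 (Gusb) to 0.96 (Pla2g15), and most lie within the bulk of all genes.

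Several calls of smaller size were lost when 1 array was left out. With any 1 array left out, 5 of the 6 rises (Pla2g15, Gm2a, Ctbs, Lipa and Idua) and 6 of the 11 falls (Gusb, Sgsh, Ppt1, Acp5, Tpp1 and Smpd1) were still called. Tpp1 is counted by its brighter probe set, while its dimmer one was called higher (0.29), so its direction is uncertain. The number of falls dropped to 7 without starved replicate 2, to 7 without control replicate 1 and to 7 without control replicate 3. Over all genes those called lower also dropped, from 2728 to 2322, 2255 and 2285 in that order. In bulk RNA a lower level per cell and fewer cells that express a gene cannot be told apart, and array values after quantile normalization show changes only relative to the other genes measured.

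The scaling of the arrays bears on every direction given here. The poly-A spike-ins, bacterial transcripts of lys, phe, thr and dap that are commonly added to the RNA before labelling, averaged 7.82, 7.96 and 7.76 on the starved arrays and 7.42, 7.43 and 7.41 on the control arrays, on the log2 scale over 24 probe sets. The 18 probe sets of the hybridization spike-ins averaged 10.32 on the starved and 10.13 on the control arrays. Centring each array on its poly-A spike-ins, called poly-A centring here, lowers all differences by 0.43 and turns the counts to 1 member higher (Pla2g15) and 26 lower, against 6.94% of all genes higher and 75.2% lower. Centring on the hybridization spike-ins lowers them by 0.19 and gives 3 members higher (Pla2g15, Gm2a and Ctbs) and 18 lower, against 13.5% of all genes higher and 49.2% lower. The median of all genes lay at −0.47 under poly-A centring and at −0.24 with the hybridization spike-ins. All 11 falls were called under both centrings. Both move every difference downward, so this outcome is no separate evidence for the falls. A centring moves all genes of an array by the same amount, so an error in that amount enters every call made under it. Rises smaller than the poly-A shift of 0.43 lie below 0 under that centring. The larger rises of Gm2a (0.50) and Ctbs (0.44) were not called there either. After quantile normalization every difference is relative to the other genes measured, and rose and fell are used here in that sense.

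**Figure D2:**
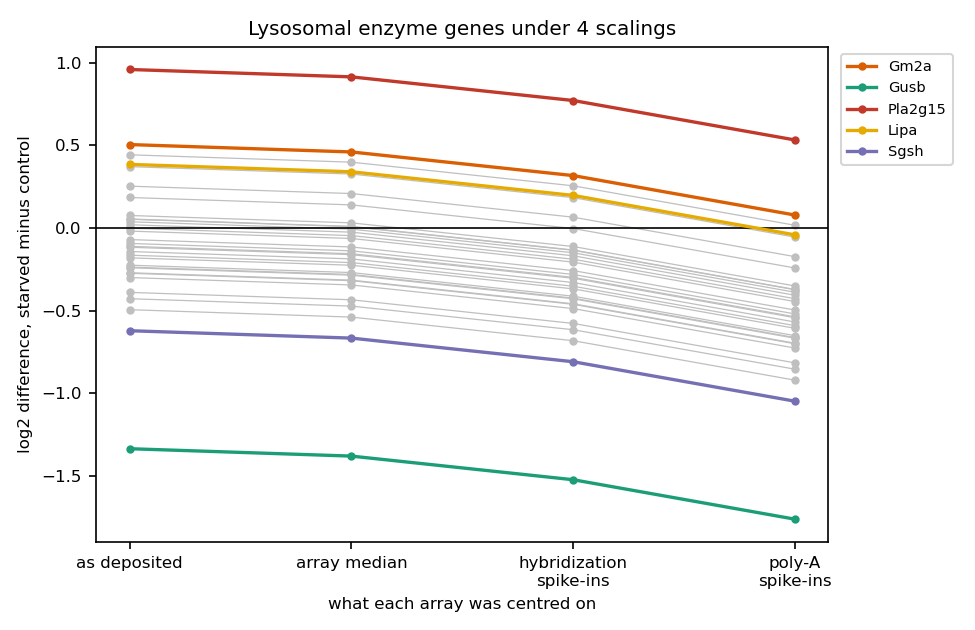
Each line follows 1 of the 32 genes through 4 scalings of the arrays, with the log2 difference, starved minus control, on the vertical axis. The order of the genes is the same under all 4, while the values as a whole shift downward, and only Pla2g15, Gm2a and Ctbs lie above 0 under poly-A centring.

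Promoter sequence is shown for the members that hold the E-box core, on which the CLEAR element is built. By their brightest probe sets 0 of these 8 genes were called higher, against 22.1% of all genes, and 2 lower, against 22.0%. With 8 genes these counts cannot be told apart from those shares. RefSeq promoter windows of 300 bases (build GRCm38.p6, 250 bases before and 50 after the gene start) were matched by gene identifier for 29 of the 32 members, in 33 windows. The palindrome CACGTG, which reads the same on both strands, was found in 8 of these 29 genes and in 8 of 33 windows (24.2%), against 7.15% of all 32851 windows. By the brightest probe set, of the 8 genes 0 rose, 2 fell (Sgsh and Glb1) and 6 did not pass (Gla, Sumf1, Naglu, Arsa, Gaa and Lgmn). Dimmer probe sets lay at 0.25 for Sumf1, called higher, and at −0.30 for Sgsh, called lower. Those of Gla (0.43) and Gaa (0.26) were not called. Arsa was called higher in some alternative fits and lower under poly-A centring. Of the 6 members that rose 0 held the core. Over all tested genes with a window, CACGTG was held by 10.8% of those higher, 13.1% of those lower and 9.90% of those that did not pass. The longer TCACGTGA, also a palindrome, was in the windows of Gla and Sumf1 and in 0.974% of all windows. GTCACGTG, searched on both strands and overlapping the core, was in 7 of the 8 genes, all but Gaa. It was in 7 of the 33 member windows (21.2%), against 2.25% of all windows. A match is a description of the letters and not a binding site. Each line below gives 40 bases, 5′ to 3′ on the strand of the gene, with CACGTG in capitals.
Gla, chrX:134601210-134601249, minus strand: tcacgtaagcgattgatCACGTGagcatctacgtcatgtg
Gla, chrX:134601177-134601216, minus strand: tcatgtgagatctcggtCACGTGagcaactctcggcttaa
Sumf1, chr6:108185572-108185611, minus strand: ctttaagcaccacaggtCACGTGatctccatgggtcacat
Naglu, chr11:101070004-101070043, plus strand: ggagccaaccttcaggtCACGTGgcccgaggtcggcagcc
Glb1, chr9:114401013-114401052, plus strand: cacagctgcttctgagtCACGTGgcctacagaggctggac
Arsa, chr15:89477418-89477457, minus strand: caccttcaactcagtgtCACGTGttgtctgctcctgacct
Lgmn, chr12:102439119-102439158, minus strand: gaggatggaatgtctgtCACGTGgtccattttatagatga
Sgsh, chr11:119355517-119355556, minus strand: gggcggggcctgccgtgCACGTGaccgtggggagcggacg
Gaa, chr11:119267806-119267845, plus strand: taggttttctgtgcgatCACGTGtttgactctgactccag

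The core began 11 bases before the gene start in Sumf1, 16 in Arsa, 29 in Sgsh, 48 in Glb1, 49 in Lgmn, 73 in Naglu and 140 in Gaa. Gla held the core at 2 places, 227 and 194 bases before its start. Among these 8 genes the differences between starved and control cells, by the brightest probe sets, ran from −0.62 (Sgsh) to 0.18 (Arsa).

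The lipid-degrading enzymes split in both directions, with 2 rises, 2 falls and 1 gene that missed the threshold (median difference −0.14). Of all genes 22.1% were higher and 22.0% lower. Pla2g15, the lysosomal phospholipase A2 that deacylates phospholipids, had log2 signals of 8.87, 8.78 and 8.65 on the starved arrays and 7.86, 7.84 and 7.73 on the control arrays. All starved arrays lay well above all control arrays, a 1.94-fold rise (log2 difference 0.96, SE 0.08, adjusted p = 9.35e-06) and the largest among the members. It stayed 0.53 higher and called under poly-A centring. Lipa, the acid lipase that releases cholesterol and fatty acids from the esters of endocytosed lipoproteins, had 9.24, 9.11 and 9.03 on the starved arrays and 8.73, 8.74 and 8.76 on the control arrays. The groups did not overlap and the gene rose 1.31-fold (0.38, SE 0.07, adjusted p = 0.00206), a rise that lay at −0.04 under poly-A centring. Lipa has 3 probe sets, and of the 2 dimmer ones the first was at 0.38 and called higher and the second at 0.17 (SE 0.32) and not called. The rise was not called where probe sets that can bind several transcripts were left out, a choice that keeps the one at 0.17.

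Ppt1, which removes palmitate from S-acylated proteins, had 8.80, 8.66 and 8.91 on the starved arrays and 9.40, 9.25 and 9.20 on the control arrays. Every starved array was below every control array, and Ppt1 fell by 0.49 (SE 0.09, adjusted p = 0.00115). Smpd1, the acid sphingomyelinase, had 9.17, 9.07 and 9.00 on the starved arrays and 9.36, 9.35 and 9.35 on the control arrays, a fall by 0.27 (SE 0.07, adjusted p = 0.0101). The next enzyme of that route is the acid ceramidase Asah1, which splits the ceramide that Smpd1 makes. Asah1 had 11.99, 11.86 and 11.96 on the starved arrays and 12.09, 12.13 and 12.02 on the control arrays. It lay lower on every starved array, but its difference of −0.14 did not pass (95% confidence interval −0.30 to 0.02, adjusted p = 0.137), although it was called with the trend and robust settings of eBayes and under both spike-in centrings.

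Both activator proteins rose, as did 22.1% of all genes. The activators are not enzymes but carry or lift lipids out of the membrane so that the glycosidases can reach them. Gm2a, the GM2 activator that presents ganglioside GM2 to beta-hexosaminidase A, had 9.47, 9.37 and 9.26 on the starved arrays and 8.87, 8.83 and 8.89 on the control arrays. It rose 1.42-fold with no overlap between the groups (0.50, SE 0.08, adjusted p = 0.000406), and lay at 0.08, not called, under poly-A centring. Psap, the precursor of the saposins, which help several sphingolipid hydrolases, had 12.22, 12.44 and 12.36 on the starved arrays and 12.17, 12.06 and 12.04 on the control arrays. Its lowest starved array was close to its highest control array, and its rise of 0.25 (SE 0.08, adjusted p = 0.0284) was the least firm of the 6. The call of Psap was lost without starved replicate 2, starved replicate 3, control replicate 2 or control replicate 3 (differences of 0.20 to 0.24, adjusted p 0.0672 to 0.0955), with the replicate number as a block (adjusted p = 0.0543), with centring on the array median (0.21) and with the mean of its probe sets (0.17). Under poly-A centring it lay at −0.17.

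Of the 13 measured glycosidases, which cut sugar units from glycans and glycolipids, 2 rose, 5 fell and 6 did not pass (median −0.16), against 22.1% of all genes higher and 22.0% lower. The number of falls was 1 without starved replicate 2 or control replicate 1. It was 2 without starved replicate 3, control replicate 2 or control replicate 3, and 5 without starved replicate 1, each time beside 2 rises. In the fits with fewer falls 2186 to 2436 of all genes were lower, against 2728 with all arrays. The median was −0.091 without starved replicate 3. The fall of Gusb, the beta-glucuronidase that removes glucuronic acid from glycosaminoglycans, was the largest difference of any member. Gusb had 8.04, 7.89 and 7.90 on the starved arrays and 9.27, 9.28 and 9.29 on the control arrays. Its control arrays were nearly equal and its starved arrays all more than 1 log2 unit below them (−1.33, SE 0.07, adjusted p = 6.13e-07), which makes it 2.52-fold lower. Only 0.726% of all genes had a difference this low or lower, counting Gusb itself.

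The other 4 falls among the glycosidases were 0.30 or less. Fuca1, the alpha-L-fucosidase, had 9.37, 9.28 and 9.25 on the starved arrays and 9.59, 9.47 and 9.56 on the control arrays, a fall by 0.24 (adjusted p = 0.0200). Manba, the beta-mannosidase, had 6.97, 6.88 and 6.88 on the starved arrays and 7.23, 7.13 and 7.06 on the control arrays, a fall by 0.23 (adjusted p = 0.0310). In both the groups were close but did not overlap. Glb1, the beta-galactosidase that degrades ganglioside GM1 and keratan sulfate, fell by 0.24 (adjusted p = 0.0368). Glb1 had 8.02, 7.83 and 7.78 on the starved arrays and 8.14, 8.11 and 8.08 on the control arrays, so that starved replicate 1 lay just under the controls. Galc, which splits galactosylceramide, had 4.69, 4.87 and 5.09 on the starved arrays and 5.28, 5.12 and 5.14 on the control arrays, a fall by 0.30 (adjusted p = 0.0372) at a dim signal, in percentile 30.1 of the mean signals of all genes. These calls were not stable to the loss of 1 array. Fuca1 lost its call without starved replicate 2 or 3 or control replicate 1 or 3 (adjusted p 0.0516 to 0.0787). With all arrays its dimmer probe sets were also called lower (−0.40 and −0.44), as was the mean of its probe sets (−0.36). Manba lost its call without starved replicate 2 or 3 or control replicate 1 or 2 (adjusted p 0.0708 to 0.127). Glb1 lost it without starved replicate 2 or 3 or any 1 control array (adjusted p 0.0683 to 0.105). Galc lost it without starved replicate 1 or 2 or any 1 control array (adjusted p 0.0568 to 0.117), and also with the replicate number as a block (adjusted p = 0.0593), after a further quantile normalization (−0.24) or with the mean of its probe sets (−0.11).

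Ctbs and Idua were the glycosidases that rose. Ctbs, the chitobiase that cuts the core of N-glycans, had 8.19, 7.99 and 8.23 on the starved arrays and 7.81, 7.62 and 7.65 on the control arrays, with no overlap (0.44, SE 0.09, adjusted p = 0.00236). Idua, the iduronidase of heparan and dermatan sulfate, had 7.47, 7.68 and 7.50 on the starved arrays and 7.19, 7.13 and 7.21 on the control arrays, again with no overlap (0.37, SE 0.08, adjusted p = 0.00315). Under poly-A centring Ctbs lay at 0.02 and Idua at −0.06, and neither was called.

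Several glycosidases whose loss causes well-known storage diseases showed no difference past the test. Hexa, the alpha subunit of beta-hexosaminidase A, had 11.32, 11.29 and 11.18 on the starved arrays and 11.16, 11.28 and 11.23 on the control arrays. Its groups overlapped, and the interval of its difference was −0.12 to 0.20. Gaa, which degrades glycogen in the lysosome, had 9.84, 9.71 and 9.54 on the starved arrays and 9.68, 9.52 and 9.66 on the control arrays (0.08, interval −0.13 to 0.28). Gla, the alpha-galactosidase of globotriaosylceramide, had 8.22, 8.32 and 8.26 on the starved arrays and 8.19, 8.28 and 8.17 on the control arrays (0.05, interval −0.10 to 0.21). Starved and control arrays of Gaa and Gla were interleaved.

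Neu1, the sialidase, had 7.66, 7.53 and 7.37 on the starved arrays and 7.73, 7.64 and 7.69 on the control arrays. Its difference of −0.16 did not pass (adjusted p = 0.144), but without starved replicate 1 it became −0.23 and was called (adjusted p = 0.0444), as was the mean of its probe sets (−0.29). Naglu, which removes N-acetylglucosamine from heparan sulfate, had 7.17, 7.08 and 6.91 on the starved arrays and 7.21, 7.21 and 7.08 on the control arrays (−0.12, interval −0.31 to 0.07). Man2b1, the alpha-mannosidase, averaged 10.05 ± 0.14 on the starved and 10.23 ± 0.03 on the control arrays (SD, n = 3 each). Its difference of −0.18 did not pass (adjusted p = 0.102), but was called with the trend and robust settings, with centring on the array median and under both spike-in centrings. Its difference was 0.03, not called, without probe sets that can bind several transcripts.

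Among the sulfatases, which remove sulfate esters or N-linked sulfate, 1 of 4 fell, 0 rose and 3 did not pass (median 0.00). Of all genes 22.0% were lower and 22.1% higher. Sgsh, the heparan N-sulfatase, had 5.97, 5.94 and 5.81 on the starved arrays and 6.43, 6.54 and 6.63 on the control arrays. The groups stood clearly apart and Sgsh was 1.54-fold lower in starved cells (−0.62, SE 0.08, adjusted p = 0.000148). Arsa, which desulfates sulfatide, had 10.39, 10.31 and 10.23 on the starved arrays and 10.16, 10.09 and 10.13 on the control arrays. All its starved arrays were higher, yet its difference of 0.18 did not pass (adjusted p = 0.0619). Without starved replicate 3 Arsa was called (0.22, adjusted p = 0.0372), as it was without the dimmest 40% of genes and with the trend and robust settings, and under poly-A centring it lay at −0.24.

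Galns, a sulfatase of keratan and chondroitin sulfate, had 7.85, 7.97 and 7.68 on the starved arrays and 7.86, 7.76 and 7.81 on the control arrays (0.02, interval −0.17 to 0.21). Ids, the iduronate sulfatase, had 7.80, 7.65 and 7.97 on the starved arrays and 7.83, 7.78 and 7.87 on the control arrays (−0.02, interval −0.22 to 0.18). In both genes the starved arrays spread to either side of the controls. Sumf1, the enzyme of the endoplasmic reticulum that converts a cysteine of every sulfatase into the catalytic formylglycine, had 9.32, 9.28 and 9.31 on the starved arrays and 9.40, 9.37 and 9.41 on the control arrays. The values within each group were tight and did not overlap, but the difference of −0.09 did not pass (interval −0.24 to 0.05, adjusted p = 0.269).

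**Figure D3:**
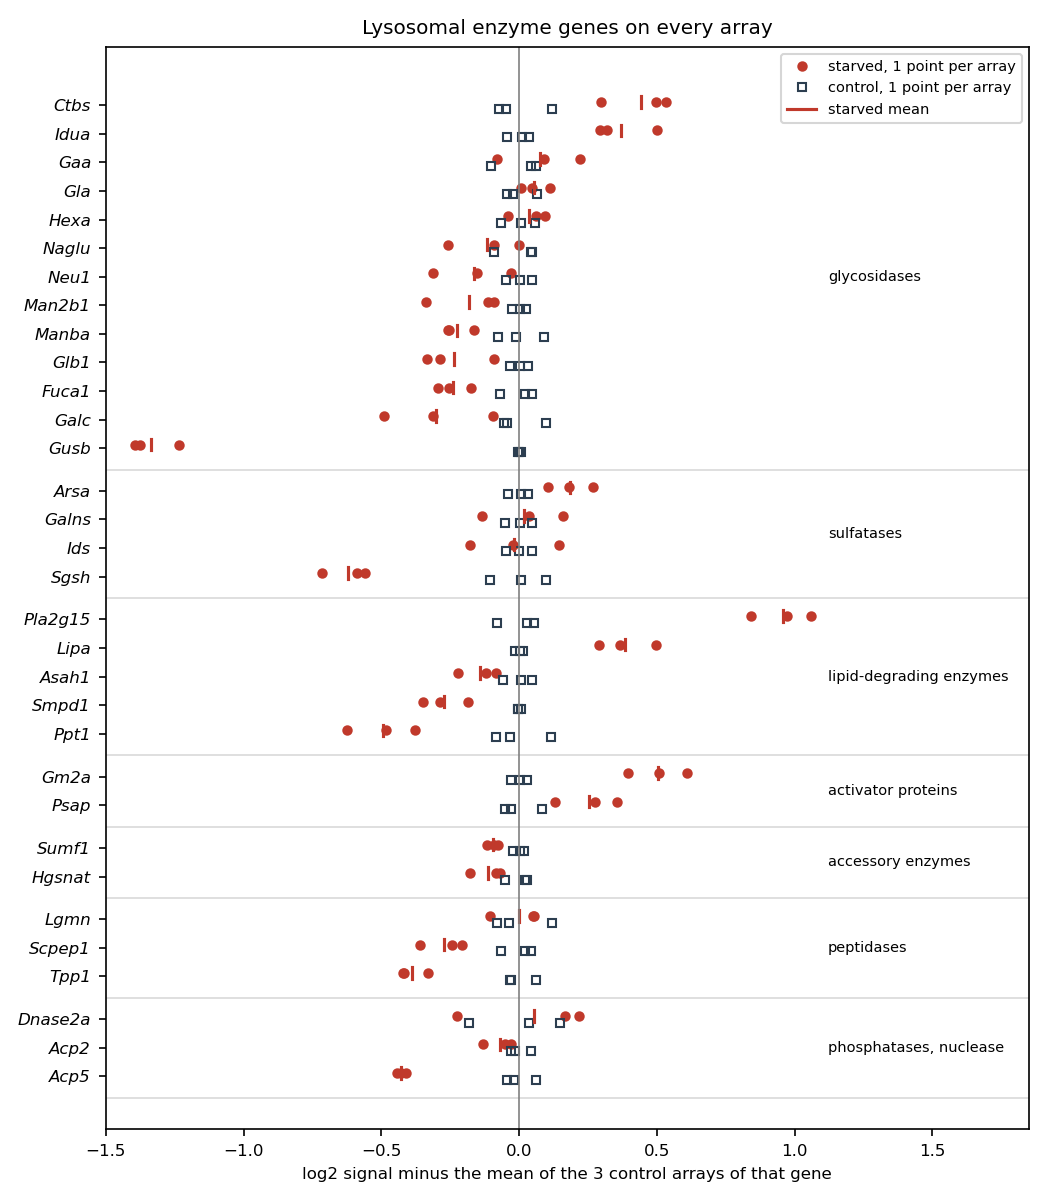
Each row is 1 gene, with 3 filled points for the starved arrays and 3 open squares for the control arrays, as log2 signal minus the mean of the control arrays of that gene. Gusb and Sgsh stand to the left of their controls and Pla2g15 and Gm2a to the right, while the arrays of Hexa, Gaa, Gla, Galns, Ids and Lgmn are interleaved.

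With the values as deposited, genes that act in sequence on a substrate were called in both directions. Heparan sulfate is taken apart by Ids, Idua, Sgsh, the acetyltransferase Hgsnat, Naglu and Gusb, and of these 6 genes 1 rose (Idua), 2 fell (Sgsh and Gusb) and 3 did not pass, with differences from −1.33 to 0.37. Hgsnat, which acetylates the glucosamine that Sgsh has freed, averaged 9.08 ± 0.06 on the starved and 9.19 ± 0.05 on the control arrays (SD, n = 3 each; −0.11, adjusted p = 0.225). Of 10 measured genes of sphingolipid breakdown 2 rose (the activators Gm2a and Psap), 3 fell (Galc, Smpd1 and Glb1) and 5 did not pass (median −0.05). For N-glycans 1 of 7 measured genes rose (Ctbs), 3 fell (Fuca1, Glb1 and Manba) and 3 did not pass (median −0.18), where 44.1% of all genes were called. The falls of this route numbered 0 without starved replicate 2, starved replicate 3 or control replicate 1, 1 without control replicate 2 or 3, and 4 without starved replicate 1. The sphingolipid falls numbered 1 without starved replicate 2 or any 1 control array and 2 without starved replicate 3, and its rises 1 without starved replicate 2 or control replicate 2 or 3. For heparan sulfate the counts were 1 rise and 2 falls whichever array was left out. Under poly-A centring 0 genes of any of these routes were higher. The lower ones were 5 of 6 for heparan sulfate, 8 of 10 for sphingolipids and 6 of 7 for N-glycans, against 75.2% of all genes. The grouping by substrate is textbook knowledge and was made with the values known.

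The remaining members were peptidases, phosphatases and a nuclease. Tpp1, which removes tripeptides from the ends of proteins, had 10.93, 10.93 and 11.02 on the starved arrays and 11.32, 11.41 and 11.32 on the control arrays, with the brighter of its 2 probe sets at −0.39 (SE 0.07, adjusted p = 0.00120). The dimmer probe set was called higher at 0.29 and the mean of both did not pass (−0.05), so that the direction of Tpp1 is uncertain. Scpep1, a serine carboxypeptidase family member, had 10.37, 10.52 and 10.48 on the starved arrays and 10.66, 10.75 and 10.77 on the control arrays, a fall by 0.27 (adjusted p = 0.0131). The call of Scpep1 was lost without control replicate 3 (−0.25, adjusted p = 0.0526) and with the mean of its probe sets (−0.16). Lgmn, the asparaginyl endopeptidase that matures cathepsins, averaged 9.95 ± 0.09 on the starved and 9.95 ± 0.10 on the control arrays, with an interval of −0.18 to 0.18.

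Acp5, the tartrate-resistant acid phosphatase best known from osteoclasts, had 4.06, 4.09 and 4.08 on the starved arrays and 4.49, 4.57 and 4.46 on the control arrays. It fell by 0.43 (adjusted p = 0.000542) at a dim signal, in percentile 21.8 of the mean signals of all genes. Acp2, the lysosomal acid phosphatase, averaged 8.12 ± 0.05 on the starved and 8.19 ± 0.04 on the control arrays, and Dnase2a, the acid nuclease, 7.05 ± 0.24 on the starved and 6.99 ± 0.17 on the control arrays (SD, n = 3 each). Neither passed, and Dnase2a had the widest spread within groups of the members named here.

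Of the 32 members 20 were measured by several probe sets, and these did not always move alike. With every probe set tested on its own, 11 of the 60 were higher, 18 lower and 31 did not pass, where 40.9% of all 20380 probe sets were called. All probe sets were called the same way for 6 genes (Ctbs, Fuca1, Gusb, Pla2g15, Ppt1 and Sgsh). The dimmer probe set of Gusb was at −1.29 and that of Pla2g15 at 0.83, close to the values of the brighter ones. For another 6 (Galc, Gm2a, Idua, Lipa, Psap and Scpep1) the brightest was called and at least 1 other was not. In 3 genes a dimmer probe set was called and the brightest was not, namely Sumf1 (0.25, higher), Acp2 (−0.26, lower) and Neu1 (−0.48, lower). The dimmest probe set of Acp2 lay on the other side, at 0.24, and was not called. The 2 probe sets of Tpp1 were called in opposite directions, as given above. For Gaa, Gla, Ids and Man2b1 0 probe sets were called. Counted by any of its probe sets, 8 members were higher and 13 lower, with Tpp1 in both. This rule gives genes with several probe sets more chances of a call, among all genes as among the members. The 40.9% above is per probe set and is not the share of genes under this rule.

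**Figure D4:**
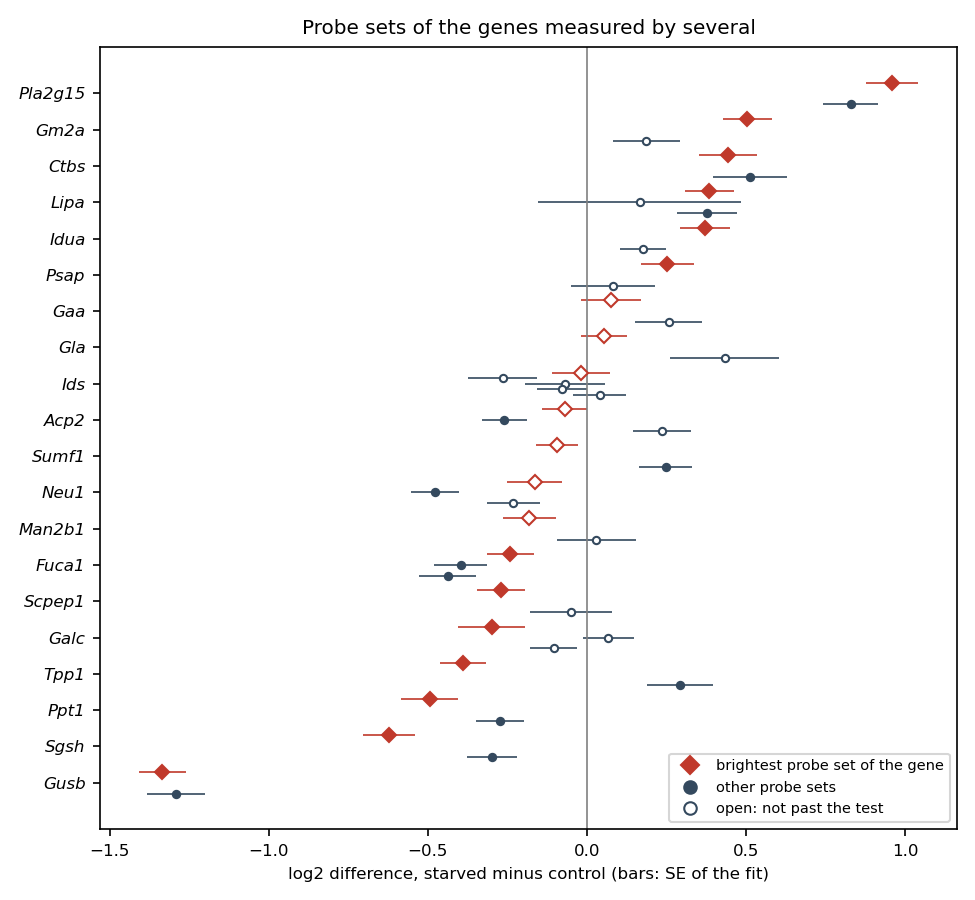
The 20 genes with several probe sets are shown with the log2 difference, starved minus control, of each probe set and the SE of the fit as bars. The brightest probe set is a diamond, and open symbols did not pass. Those of Gusb, Pla2g15 and Ctbs lie together, while those of Tpp1 lie on opposite sides of 0 (−0.39 and 0.29). Those of Sumf1, Acp2, Galc, Man2b1 and Ids also lie on both sides of 0.

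Other parts of the lysosome were also called in both directions, where 22.1% of all genes were higher and 22.0% lower. Of 16 measured further hydrolases 1 rose (Smpdl3a, 0.32), 3 fell and 12 did not pass (median −0.11). The falls were the acid amidase Naaa (−0.49), the hyaluronidase Hyal3 (−0.24) and the thioesterase Ppt2 (−0.24), and 1 fall was left without starved replicate 2, starved replicate 3 or any 1 control array. Of 12 cathepsins, the lysosomal proteases, 2 rose (Ctsf, 0.75, and Ctsw, 0.55), 5 fell and 5 did not pass (median −0.15). Ctsa, which protects Glb1 and Neu1 in a complex, fell by 0.60, Ctse by 0.48 and Ctsb by 0.39. The falls of the cathepsins numbered 3 without starved replicate 3 or any 1 control array. Of 25 membrane proteins and proton pump subunits 5 rose, 5 fell and 15 did not pass (median 0.00). The cholesterol exporter Npc1 rose by 0.90, the pump subunit Atp6v1b2 by 0.42, the lysosomal receptor Scarb2 by 0.41 and the calcium channel Mcoln1 by 0.33. The pump subunits Atp6v1h, Atp6v0e and Atp6v0b fell by 0.65, 0.36 and 0.31, and the falls of this list numbered 2 without control replicate 1 or 3 and 3 without starved replicate 3 or control replicate 2. Under poly-A centring 0 of the further hydrolases, 1 cathepsin (Ctsf) and 1 membrane protein (Npc1) were higher, against 6.94% of all genes. Lower there were 15, 10 and 19 genes of these lists in that order, against 75.2% of all genes. The differences between these lists and the 32 members were not tested.

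Genes that tag and carry the hydrolases also went both ways. Of 15 measured 4 rose, 6 fell and 5 did not pass (median −0.12), against 22.1% of all genes higher and 22.0% lower. Gnptab, a subunit pair of the phosphotransferase that starts the mannose 6-phosphate tag, fell by 0.29 (adjusted p = 0.0111). Of the tag's receptors, M6pr fell by 0.48 (adjusted p = 0.000208) and Igf2r rose by 0.40 (adjusted p = 0.0128), though Igf2r lay at −0.03 under poly-A centring. Cln6, a protein of the endoplasmic reticulum needed for the export of lysosomal enzymes, rose by 0.77 and the sorting adaptor Gga1 by 0.76. The clathrin adaptor subunits Ap1s1 and Ap1g1 fell by 0.41 and 0.36. Among 8 measured regulators of lysosomal genes 1 rose (Mitf, a relative of TFEB, 0.62), 2 fell (the small GTPase Rraga, −0.78, and its regulator Flcn, −0.25) and 5 did not pass, with 1 fall without starved replicate 1 or 3 or control replicate 1 or 2. Tfeb itself was at 7.15 on the starved and 6.99 on the control arrays and did not pass (0.17, adjusted p = 0.159). Under poly-A centring Mitf lay at 0.20 and was not called. Transcript levels do not show where the TFEB protein was.

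On the side of synthesis, genes that make the substrates of these enzymes were counted in the same way. Over all genes 22.1% were higher and 22.0% lower. Of 24 measured genes of glycosaminoglycan synthesis 3 rose, 11 fell and 10 did not pass (median −0.12). With 1 array left out the falls ranged from 7 (without control replicate 2) to 10 and the rises from 1 (without starved replicate 1 or 2 or control replicate 1 or 2) to 5 (without starved replicate 3). The galactosyltransferase B3galt6 of the linker region fell by 1.51, the hyaluronan synthase Has2 by 0.91 and Extl2 by 0.74, while Csgalnact2 rose by 0.37, Ext1 by 0.21 and Chst12 by 0.19. For sphingolipids and glycosphingolipids 3 of 18 rose, 4 fell and 11 did not pass (median −0.04). St3gal5, which makes ganglioside GM3, fell by 0.81, Sptlc1 of the first step by 0.63 and the sphingomyelin synthase Sgms1 by 0.50. A4galt, which makes the globotriaosylceramide that Gla degrades, rose by 0.60, B3galt4 by 0.42 and B4galnt1 by 0.27. The rises of that list numbered 2 without starved replicate 2, and also without any 1 control array. Under poly-A centring 0 genes of either list were higher, against 6.94% of all genes. Lower there were 22 of the 24 and 15 of the 18, against 75.2% of all genes.

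Markers were checked because macrophages and osteoclasts are rich in several of these enzymes. The cells carried fibroblast transcripts, with a median log2 signal over 12 markers of 12.04 in starved and 11.63 in control cells, although the fibroblast surface marker Thy1 was dim (4.60 in starved and 4.99 in control cells). Of the 12 markers 8 rose and 2 fell, against 22.1% of all genes higher and 22.0% lower. Under poly-A centring 1 was higher and 5 were lower (median −0.10), against 6.94% and 75.2% of all genes. The summed linear signal of the 12 markers, as deposited, was 77265 to 79649 on the starved and 61649 to 63926 on the control arrays. All 16 measured macrophage markers were dimmer than the median gene, their summed linear signal was 352 to 365 on the starved and 362 to 383 on the control arrays, and 1 rose (Cd68, 0.44) and 1 fell (Cx3cr1, −0.23). Cd68 is itself a lysosomal protein. Of 6 osteoclast markers 1 rose (Nfatc1, 1.00) and 1 fell (Calcr, −0.19), and their summed linear signal was 258 to 299 on the starved and 195 to 199 on the control arrays. Nfatc1 alone made that sum higher: the other 5 markers all lay below 0, and their sum was 91.3 to 94.5 on the starved and 101 to 103 on the control arrays. Of 7 epithelial markers 1 rose (Cdh1, 0.91) and of 7 endothelial markers 2 fell (Kdr, −0.27, and Pecam1, −0.27), and all 14 were dimmer than the median gene. The part of these markers in the results on the lysosomal genes was not tested.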

How the data were processed

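The authors deposited 1 table of log2 values per probe set for 6 arrays, made with affy and RMA, in versions that the sources used here do not give, per the submitters' processing notes. That method corrects background, normalizes arrays by quantiles and summarises probes, so a change in total RNA per cell is removed and folds of dim genes are compressed. Array medians lay between 6.73 and 6.81, and with no depth or detection calls in the values, precision is set by the 3 arrays a group.

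Of 22690 probe sets 64 are controls, 20380 name 1 gene in the platform annotation, 691 several and 1555 none listed. Only those with 1 gene were used, and each gene took its brightest probe set over all arrays, with no filter on dim genes. All 32 measured members were found in RefSeq by gene identifier and 0 symbols differed. Groups came from the sample titles. A linear model with group alone was fitted to 12393 genes in limma 3.58.1 (R 4.3.3), with its moderated statistics from eBayes and two-sided p-values. Deviations of same-numbered starved and control arrays correlated by −0.02 to 0.00, so the numbers were not taken as pairs.

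The fit was tested on simulated data first. Members, lists and alternatives were chosen with earlier results of these data known. All members are named. Values on every array are given for the called members that rose, the 8 largest falls and a set of fixed genes, and up to 3 risen and 3 fallen genes per further list are named, with a few fixed genes, of which 1 is not reported here. Alternatives were other probe set rules, dropping the dimmest 40% of genes, 4 other scalings, trend and robust eBayes, array weights, a replicate block, leaving out each array, an adjusted p below 0.01, limma's treat at a fold change of 1.2 and each probe set on its own. Python 3.11.15, pandas 2.3.3 and matplotlib 3.10.9 were used.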

Additional observations from a re-analysis of the deposited data

How the results depend on the processing

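Of 568 values of single members under the alternatives, 458 kept their sign and side of the threshold, 57 lost a call, 24 gained one and 29 changed sign. Of the 29, 20 were called under neither setting: 6 with the hybridization spike-ins and the others under 9 settings with 1 to 4 each. The other 9, called in at least 1 of the compared fits, were under poly-A centring, at −0.39 for Hexa, −0.35 for Gaa, −0.37 for Gla, −0.056 for Idua, −0.41 for Galns, −0.24 for Arsa, −0.042 for Lipa, −0.17 for Psap and −0.37 for Dnase2a. That centring gave 10181 genes called, 1 member higher and 26 lower, and medians of −0.53 for all members, −0.59 for glycosidases, −0.43 for sulfatases and −0.57 for lipid-degrading enzymes. The hybridization spike-ins gave 3 higher and 18 lower, with medians of −0.29, −0.35, −0.19 and −0.33 in that order. These shifts follow from subtracting 1 value per array. Centring on the array median put the median of all members at −0.15 and of the sulfatases at −0.045, and left 42.3% of all calls higher against 50.1% as deposited. The median of all members was −0.14 after a further quantile normalization and −0.062 with the mean of probe sets. Without probe sets that can bind several transcripts the lipid-degrading enzymes had a median of 0.011 over 4 genes. An adjusted p below 0.01 left 5 falls. With treat 2253 genes, 2 rises and 2 falls passed. Leaving out 1 array gave 4541 to 5317 genes called, 5 to 6 rises, 7 to 11 falls, and medians of −0.11 to −0.08 for all members, −0.20 to −0.091 for glycosidases, −0.02 to 0.01 for sulfatases and −0.17 to −0.10 for lipid-degrading enzymes. With the replicate number as a block 5274 genes, 5 rises and 10 falls were called, and the calls of Psap (adjusted p = 0.0543) and Galc (adjusted p = 0.0593) were lost. The replicate numbers are only numbers here, since same-numbered arrays did not deviate together. Depth does not apply to arrays. With 3 arrays a group, several calls with differences between 0.2 and 0.3 were lost when 1 array was left out.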
